A study of Mus musculus with 4 samples.

Results

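The box C/D and box H/ACA small nucleolar RNAs (snoRNAs) were examined in RNA of the newborn mouse retina before and after a pulldown with anti-YTHDF2 antibody. Genes were taken by symbol from the table of counts per gene, *Snord* followed by a number for box C/D and *Snora* followed by a number for box H/ACA, and were kept at 10 or more counts in total over the 4 libraries. This gave 76 of the 52550 genes in the table, 45 of box C/D out of 99 with such a symbol and 31 of box H/ACA out of 41. Members were thus selected on their total count over the 4 libraries, and *Snord100*, *Snord43*, *Snord88c* and *Snora17* lay just inside the limit with 10 counts, while *Snord50b*, *Snord69*, *Snord92* and *Snora75* lay just outside with 9. All libraries came from retinas of wild type C57BL/6 mice at postnatal day 0, dissociated with papain. Each of 2 biological replicates gave an input library, made from RNA taken before the pulldown, and a RIP library, made from RNA eluted after RNA immunoprecipitation (RIP) with the antibody. No genotype, treatment or age differed between the groups, how many animals were pooled is not given in the sources used here, and the pulldown with control IgG that the study's methods name was not analysed here.

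snoRNAs are stable noncoding RNAs of the nucleolus that guide chemical changes of other RNAs by base pairing. Box C/D snoRNAs bind fibrillarin, NOP56, NOP58 and SNU13 and direct methylation of ribose, whereas box H/ACA snoRNAs bind dyskerin, GAR1, NHP2 and NOP10 and direct the conversion of uridine to pseudouridine. Most of their targets lie in ribosomal RNA, some lie in small nuclear RNAs of the spliceosome such as U6, and a few snoRNAs act in the cleavage of the ribosomal RNA precursor. In mammals most snoRNAs are cut from introns of host genes after splicing. YTHDF2 is a reader of N6-methyladenosine that is known for sending methylated mRNAs to decay in the cytoplasm.

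The sequences below, from GENCODE M21 on GRCm38, are those of box C/D snoRNAs on which the comparison turned, namely abundant members, *Snord8* with the lowest fold change, and *Snord89* with the highest. Capitals mark a C box (TGATGA, searched within the first 20 bases) and a D box (CTGA, searched within the last 16 bases) on the RNA's own strand.
Snord15b (chr7:99479563-99479707, minus strand): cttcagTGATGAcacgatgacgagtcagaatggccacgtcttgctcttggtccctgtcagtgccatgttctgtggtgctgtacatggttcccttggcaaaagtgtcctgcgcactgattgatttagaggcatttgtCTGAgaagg
Snord15a (chr7:99482785-99482932, minus strand): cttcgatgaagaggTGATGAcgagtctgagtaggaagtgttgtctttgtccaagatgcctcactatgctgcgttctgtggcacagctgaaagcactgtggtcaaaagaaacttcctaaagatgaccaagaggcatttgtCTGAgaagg
Snord22 (chr19:8725866-8725991, plus strand): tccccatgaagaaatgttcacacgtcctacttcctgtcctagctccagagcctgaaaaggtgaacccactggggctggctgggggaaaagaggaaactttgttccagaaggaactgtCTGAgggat
Snord118 (chr11:69073427-69073561, plus strand): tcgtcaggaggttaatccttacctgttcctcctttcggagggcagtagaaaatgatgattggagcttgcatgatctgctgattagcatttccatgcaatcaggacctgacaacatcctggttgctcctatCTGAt
Snord21 (chr5:107904555-107904648, plus strand): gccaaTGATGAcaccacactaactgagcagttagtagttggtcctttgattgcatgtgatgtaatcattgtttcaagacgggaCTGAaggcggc
Snord8 (chr14:52209785-52209894, minus strand): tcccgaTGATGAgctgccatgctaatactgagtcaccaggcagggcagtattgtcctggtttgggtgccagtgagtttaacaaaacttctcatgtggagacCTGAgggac
Snord89 (chr1:39548745-39548854, minus strand): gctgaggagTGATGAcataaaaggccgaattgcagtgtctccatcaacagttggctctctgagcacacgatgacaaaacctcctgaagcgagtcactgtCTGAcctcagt

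Both boxes were found in 29 of 44 box C/D members with a sequence of this type (65.9%) and in 0 of 31 box H/ACA members, against 0.0704% of 7103 other annotated transcripts of up to 250 nt. Within these windows *Snord22* and *Snord118* held only the D box, and TGATGA lies further inside *Snord118*, outside the C box window. *Snord43* had no sequence among the annotated snoRNAs. *Snord15a* and *Snord15b*, which lie in the same host gene, *Rps3*, were identical in 66.0% of their aligned positions.

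For box H/ACA, the sequences are likewise the most abundant or most depleted members, the *Snora73* pair, and *Snora7a*, which had the highest fold change of the tested genes of its class. Some members that were not tested for low counts had higher values. Capitals mark the ACA near the 3′ end (at most 5 bases after it) and the H box (ANANNA) nearest to the middle.
Snora73b (chr4:132352322-132352526, minus strand): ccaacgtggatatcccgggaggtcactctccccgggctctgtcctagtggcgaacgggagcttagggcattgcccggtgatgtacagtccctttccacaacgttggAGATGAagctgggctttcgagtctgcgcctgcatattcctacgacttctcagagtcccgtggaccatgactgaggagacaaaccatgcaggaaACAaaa
Snora73a (chr4:132352775-132352979, minus strand): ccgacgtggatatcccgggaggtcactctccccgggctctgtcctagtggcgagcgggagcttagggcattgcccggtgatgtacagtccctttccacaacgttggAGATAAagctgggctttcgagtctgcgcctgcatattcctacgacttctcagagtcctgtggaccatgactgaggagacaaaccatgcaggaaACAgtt
Snora23 (chr7:110046364-110046547, plus strand): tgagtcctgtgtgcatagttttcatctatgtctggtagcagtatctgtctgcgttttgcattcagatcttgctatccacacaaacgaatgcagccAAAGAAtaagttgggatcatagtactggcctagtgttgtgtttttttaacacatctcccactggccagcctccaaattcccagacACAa
Snora31 (chr14:75847905-75848034, plus strand): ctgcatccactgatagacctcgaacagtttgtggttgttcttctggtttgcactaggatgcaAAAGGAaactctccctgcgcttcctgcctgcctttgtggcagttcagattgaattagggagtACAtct
Snora69 (chrX:37082912-37083042, minus strand): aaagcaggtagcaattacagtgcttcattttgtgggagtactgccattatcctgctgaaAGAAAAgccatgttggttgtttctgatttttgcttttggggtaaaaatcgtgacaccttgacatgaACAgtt
Snora7a (chr6:115807975-115808114, minus strand): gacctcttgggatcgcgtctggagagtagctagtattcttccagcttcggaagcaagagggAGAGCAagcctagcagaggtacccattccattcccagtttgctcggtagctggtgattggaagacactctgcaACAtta

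An H box between 35% and 65% of the length together with the terminal ACA was found in 28 of 31 box H/ACA members (90.3%), in 1 of 44 box C/D members (2.27%) and in 5.17% of the other short transcripts. The sequences thus went with the class named in the symbol. *Snora73a* and *Snora73b* were identical at 198 of 205 positions, so that reads could be shared between them. A copy with at least 90% identity over 80% of the length lay elsewhere among annotated transcripts for 16 of 31 box H/ACA and 7 of 45 box C/D members, and counts of these genes are uncertain.

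Total counts ran from 19530226 to 39499994 per library, of which the ribosomal RNA region of *AY036118* and *CT010467.1* took 55.0% to 55.5% of each input and 85.3% to 87.8% of each RIP library. Levels are given as CPM, the count divided by the library size in units of 1e+06 and by edgeR's TMM factor, so that fold changes are set against the majority of tested genes and give no amount of RNA. The 9 retina markers used (*Pax6*, *Rax*, *Crx* and others) were all tested, with a sum of 322 to 344 CPM in the inputs and 258 to 272 CPM in the RIP libraries. Of the lens markers 4 of 5 were at 0, and *Rpe65*, *Tyr* and *Mlana* of the pigment epithelium were at 0 as well. The pigment epithelium marker *Rlbp1* had 132 and 116 input counts and 109 and 91 RIP counts. *Best1*, of the same list, had 6 and 7 input counts and 0 and 6 RIP counts. The endothelium markers summed to 32.3 to 33.4 CPM per input and to 65.6 to 67.2 CPM per RIP library, nearly all of it *Kdr*, while *Pecam1* had 7 counts in each input and 0 in both RIP libraries. Their part in the results was not tested. The 5 blood markers stayed under 1 CPM in sum in every library.

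snoRNA counts were a small part of every library and were lower in the RIP. The 45 box C/D members summed to 91.5 CPM in replicate 1 and 115 CPM in replicate 2 of the input, and to 17.4 and 27.5 CPM in those of the RIP. The 31 box H/ACA members summed likewise to 29.5 and 25.2 CPM before and to 9.16 and 9.27 CPM after the pulldown. In both classes each RIP library lay below each input, without overlap. *Snord15b* and *Snord22* alone made up 44.8% and 56.0% of the counts of all members in input replicates 1 and 2 and 29% and 38.8% of those in the RIP.

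For the test of RIP against input, edgeR's quasi-likelihood fit took in the 13632 genes left by a filter on low counts, and a gene was called at a Benjamini-Hochberg adjusted p below 0.05. Of the 76 snoRNA genes 36 passed this filter, 19 of box C/D and 17 of box H/ACA, and 40 did not. Among the 36, 10 were lower in the RIP (27.8%), 7 of box C/D and 3 of box H/ACA, where 9.78% of all tested genes were called lower. None was called higher, against 3.48% of all tested genes, and none reached an unadjusted p below 0.05 in that direction with edgeR or DESeq2, while limma on FPKM values had 2 such genes and called neither. At a looser rule, a log2 fold change of at least 1 in size with an unadjusted p below 0.05, 20 of the 36 were lower (17.2% of all tested genes) and 0 were higher (9.43%). Fitted values below 0 were found for 33 of the 36, against 51.9% of all tested genes. Because 12 of the 36, 6 in each class, passed the filter through the inputs alone and had to be lower in the RIP, these shares do not stand for all snoRNAs. Of the 24 that passed through both kinds of library 7 were called lower, 6 of 13 box C/D and 1 of 11 box H/ACA. The share called lower among all genes that passed through both kinds was not computed. These counts therefore have no background to be read against, and they show no excess of calls in box H/ACA.

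**Figure D1:**
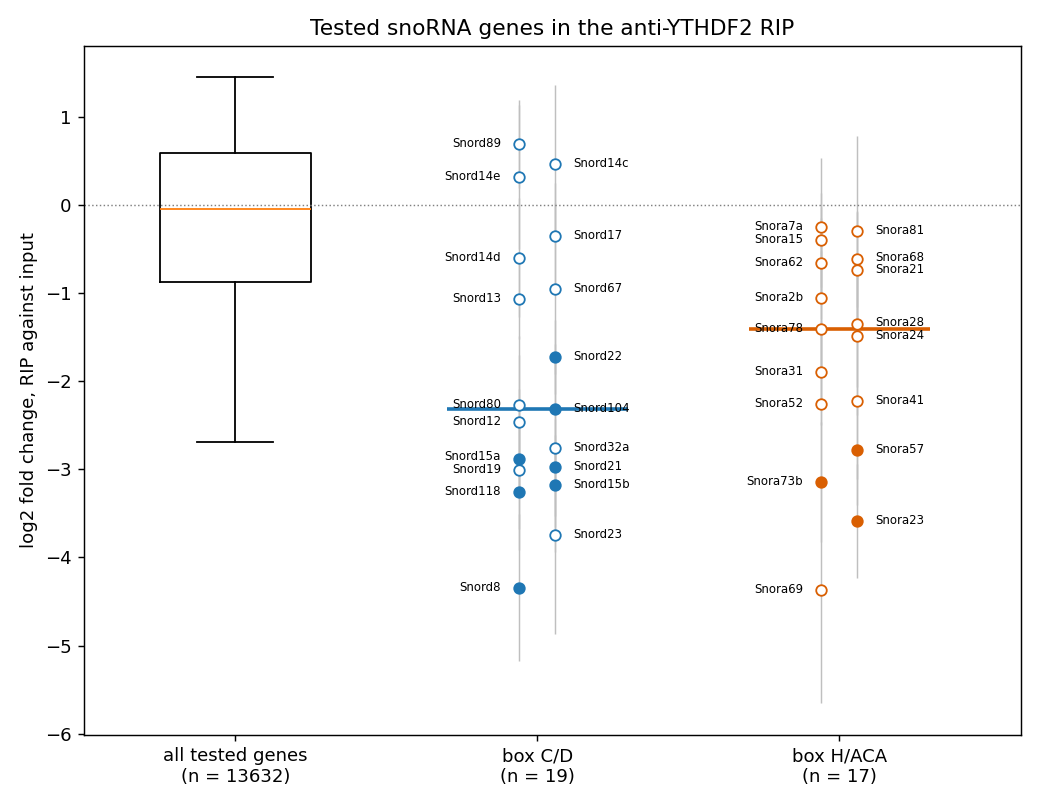
Log2 fold changes of RIP against input for the 19 box C/D and 17 box H/ACA genes tested, with standard errors as grey bars, filled points for an adjusted p below 0.05 and a line at each class median; the box shows all 13632 tested genes from the 25th to the 75th percentile, with whiskers at the 5th and 95th. Nearly all snoRNA points lie below 0, with *Snord89*, *Snord14c* and *Snord14e* as the exceptions at 0.69, 0.47 and 0.31.

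The 2 classes had medians apart in the tested genes but not in all members. The median log2 fold change was -2.31 for the 19 box C/D genes and -1.41 for the 17 box H/ACA genes, against -0.05 for all tested genes. Over the 13 and 11 members that passed the filter through both kinds of library the medians were -1.07 and -0.74, and over the 6 and 6 that passed through the inputs alone, which had to be low in the RIP, they were -2.88 and -2.52. Taken replicate by replicate, the medians were -2.69 and -1.99 for box C/D and -1.47 and -1.81 for box H/ACA, over members with counts in both libraries of the replicate. The H/ACA median was thus 0.90 above that of box C/D in the fit. When every gene with at least 10 counts in total was fitted, so that all 76 members had a value, the medians were -1.37 for box C/D and -1.33 for box H/ACA, a difference of 0.038, with -0.11 for all 16906 genes. That fit called 9 of the 76 lower (11.8%, against 6.28% of its genes), 6 and 3 by class, and 0 higher with edgeR (1.82% of its genes, and 0 at an unadjusted p below 0.05), and 39 of 45 and 28 of 31 had values below 0. Without RIP replicate 1 the H/ACA median fell below that of box C/D, by 0.52 on the log2 scale (difference -0.52). The members share libraries and are not replicates, so the class difference has no test.

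The order of the 4 libraries uses every member and no model. In 46 of the 76 (60.5%) both RIP libraries lay below both inputs, against 31.5% of all 16906 genes with at least 10 counts, and in 27 the groups overlapped. By class these were 24 of 45 box C/D (53.3%) and 22 of 31 box H/ACA (71.0%). Of the 36 tested members 29 lay below (31.3% of all tested genes) and 1 above (29.6%). The groups lay the other way round in 3 of the 76, *Snord89*, *Snora30* and *Snora65* (3.95%, against 26.2% of all genes). With libraries scaled by their size alone 35 of the 76 lay below, against 23.3% of all genes. At this scaling 7 lay above, for which no share of all genes was computed. Counts of both replicates were also pooled into a ratio of RIP to input with an exact 95% interval (Clopper-Pearson, counting error only). Its median was 0.384 for box C/D and 0.389 for box H/ACA, and the interval lay below 1 in 40 members, spanned 1 in 33 and lay above 1 in 3. These intervals were not computed for all genes, and replicates differed by more than counting error. The counts of intervals therefore have no background to be read against.

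**Figure D2:**
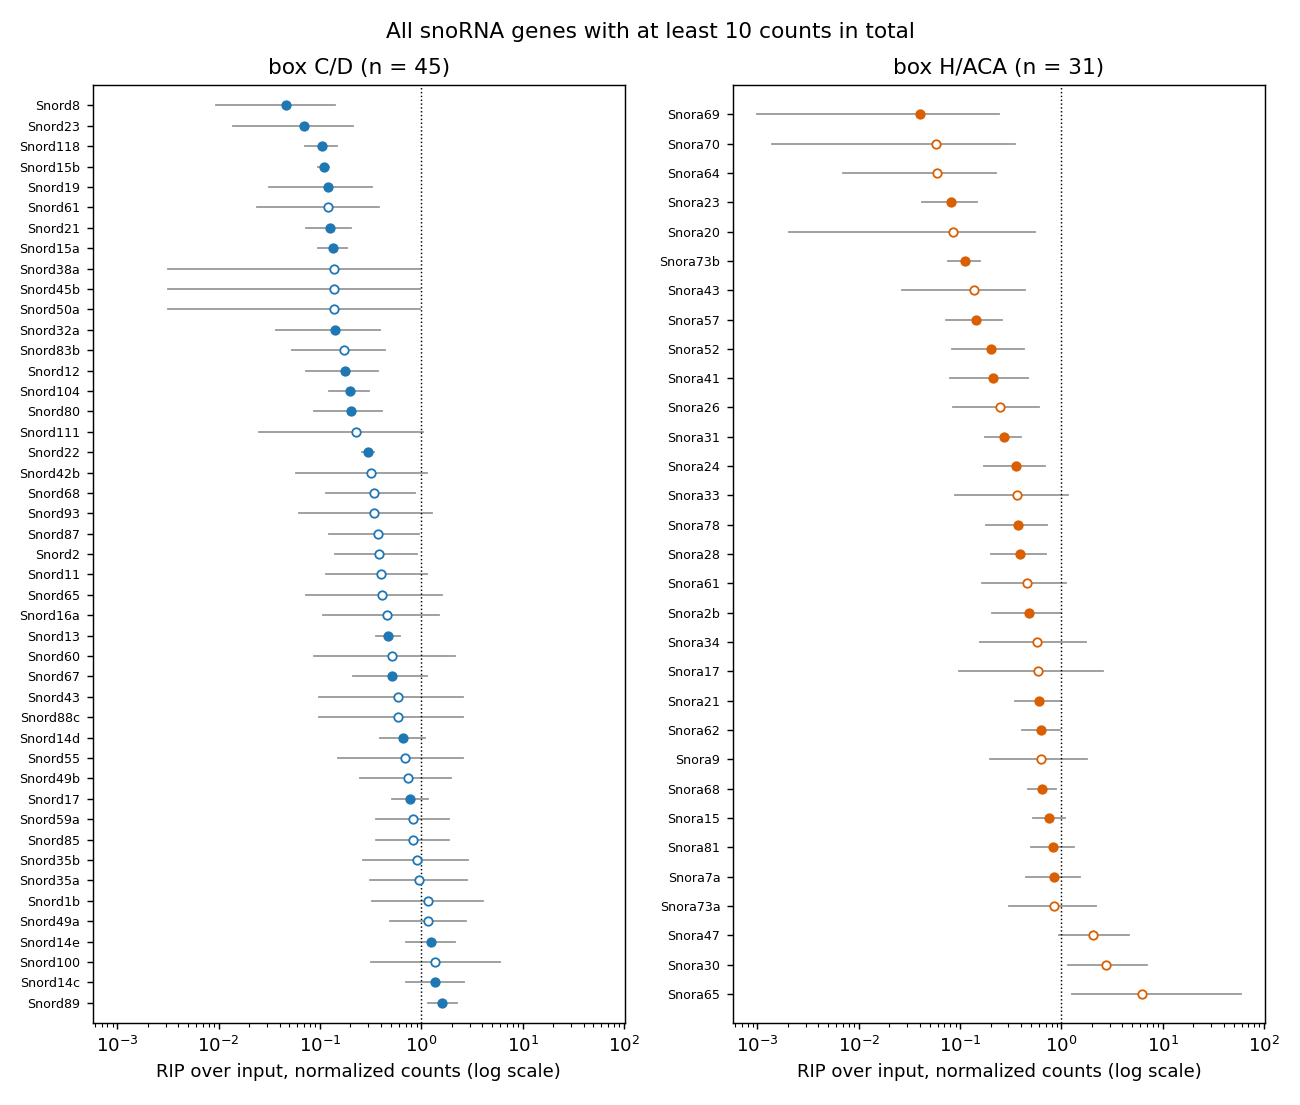
Ratio of RIP to input for all 45 box C/D and 31 box H/ACA members, counts of both replicates pooled and scaled, on a log axis; bars are exact 95% intervals that cover counting error only, and filled points mark the 36 members that passed the filter on low counts. Points of both classes lie mostly left of the dotted line at 1, and the widest bars belong to members with 1 count in the RIP.

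The most abundant box C/D member was *Snord15b*, which forms the U15 pair with *Snord15a*, methylation guides for the large ribosomal subunit RNA from the gene of ribosomal protein *Rps3*. *Snord15b* counted 1346 reads in replicate 1 and 1878 in replicate 2 of the input, against 81 and 176 in those of the RIP. The means were 47.6 ± 10.2 CPM (SD, n = 2) for input and 5.26 ± 2.90 CPM for RIP, a log2 fold change of -3.18 (standard error 0.476, edgeR adjusted p = 0.00453). *Snord15a* had 198 and 241 input counts and 20 and 23 RIP counts, at -2.88 on the log2 scale (standard error 0.420, edgeR adjusted p = 0.00395). For both, the inputs lay far above the RIP libraries, and the replicates of a group were closer to each other than to the other group. Per length, on the authors' FPKM scale, *Snord15b* was the most abundant of the 76 members in both inputs, at 225 and 345 FPKM, followed by *Snord22* at 88.5 and 174 FPKM. Next came *Snord118* at 42.8 and 46.4 FPKM and *Snord15a* at 32.3 and 43.3 FPKM, whose input values overlapped, so that their order is not settled. The gene lengths behind FPKM are not given in the sources used here, and for a few snoRNAs they may differ from the annotation's.

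snoRNAs that act in the processing of the ribosomal RNA precursor were taken as a group of 9 genes in the table, of which 8 had 10 or more counts and 7 were tested. Of these 3 were lower in the RIP (9.78% of all tested genes), none was higher (3.48%), and the median log2 fold change was -1.07. U8, *Snord118*, which is needed for the large subunit RNAs and has its own promoter, had 239 and 235 input counts against 19 and 17 RIP counts. It fell by 3.26 on the log2 scale (standard error 0.418, edgeR adjusted p = 0.00238), with the smallest p of all members. U22, *Snord22*, which acts on the small subunit RNA and lies in the noncoding host *Snhg1*, had 460 and 823 input counts and 113 and 167 RIP counts. This was a log2 fold change of -1.73 (standard error 0.417, edgeR adjusted p = 0.0301), and its call was lost with library size alone (-1.46, adjusted p = 0.0541), with no filter (-1.66, adjusted p = 0.0786) and with limma on log2(FPKM + 1) (-1.43, adjusted p = 0.0510, or 0.169 with no filter). The inputs of *Snord22* differed from each other by more than those of *Snord118*, but both were above the RIP libraries. Box H/ACA U17, *Snora73b*, which also acts on the small subunit RNA, had 177 and 231 input counts and 5 and 28 RIP counts. At -3.14 (standard error 0.678, edgeR adjusted p = 0.0202) it was called as well, although the RIP libraries differed from each other, and the call was lost with no filter (adjusted p = 0.0563) and with limma on unfiltered log2(FPKM + 1) (adjusted p = 0.0834). Its near copy *Snora73a* had 6 and 7 input counts and 4 RIP counts in each replicate and was not tested.

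The rest of this group was not called. U13, *Snord13*, which guides acetylation of the small subunit RNA, had 96 and 125 input counts and 30 and 46 RIP counts, with a log2 fold change of -1.07 (edgeR adjusted p = 0.148) and no overlap between the groups. The U14 copies of the *Hspa8* gene, which act on the small subunit RNA, had values nearer to 0, a difference from U8, U17 and U22 that was not tested. *Snord14d* had 29 and 23 input counts and 15 and 10 RIP counts, and a log2 fold change of -0.60. *Snord14e* had 16 and 14 input counts and 7 and 20 RIP counts, at 0.31, and *Snord14c* had 7 and 14 against 6 and 15, at 0.47. For *Snord14c* and *Snord14e* the groups overlapped, and without RIP replicate 2 their values were -0.31 and -0.58. *Snord14c* and *Snord14d* were identical in 97.7% of their positions, and the edgeR adjusted p of the 3 copies ran from 0.598 to 0.836.

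**Figure D3:**
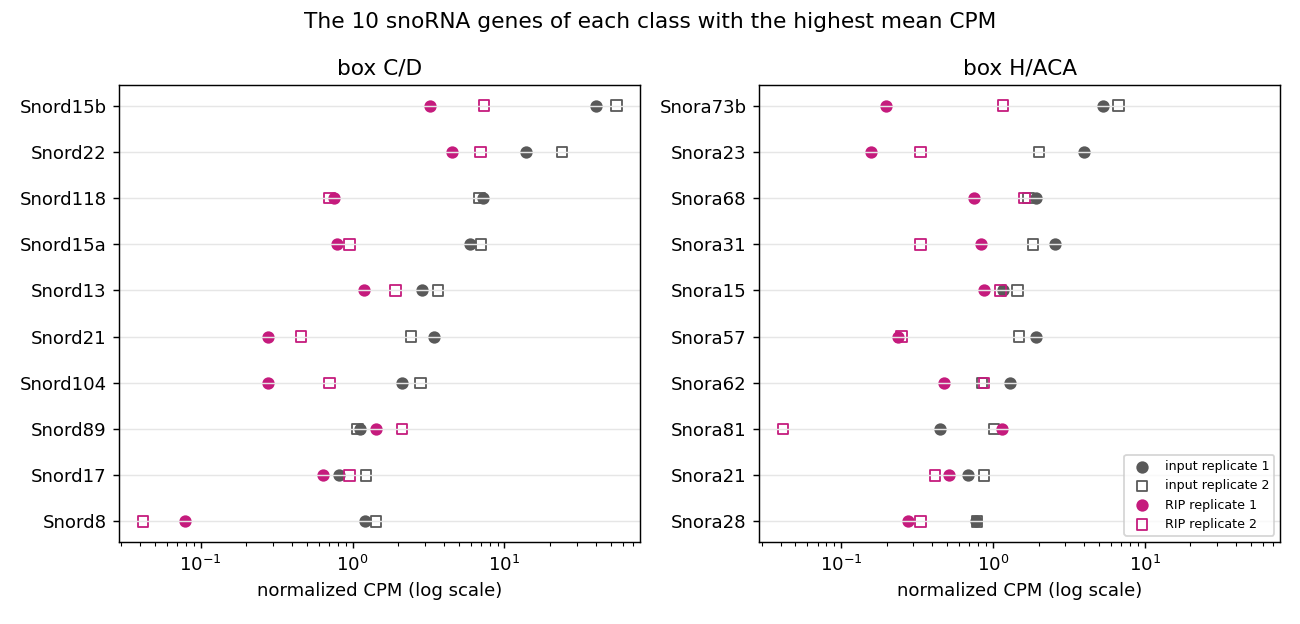
Normalized CPM on a log axis in each of the 4 libraries for the 10 box C/D and 10 box H/ACA genes with the highest mean; filled circles are replicate 1, open squares replicate 2, grey is input and magenta is RIP. *Snord15b* spans 3.21 CPM in RIP replicate 1 to 54.7 CPM in input replicate 2, and only *Snord89* has both RIP libraries to the right of both inputs.

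Other box C/D members called lower were *Snord8*, *Snord21* and *Snord104*. *Snord8*, a methylation guide for U6 from an intron of *Chd8*, had 40 and 49 input counts and 2 and 1 RIP counts, and had passed the filter through the inputs alone. With so few RIP counts the pooled input was 21.6 times the RIP (95% interval 7.16 to 107, counting error only), and the edgeR adjusted p was 0.0127. Its host *Chd8* stood at 0.67 (edgeR adjusted p = 0.273). *Snord67*, the other U6 guide among the members, had 10 and 14 input counts and 7 and 2 RIP counts, with a log2 fold change of -0.95 (edgeR adjusted p = 0.557), so that the 2 U6 guides differed in their calls, a difference that was not tested. *Snord21*, from the ribosomal protein gene *Rpl5*, had 114 and 83 input counts and 7 and 11 RIP counts, a log2 fold change of -2.98 (edgeR adjusted p = 0.0109). *Snord104*, which lies in no annotated gene on its strand, had 70 and 96 input counts and 7 and 17 RIP counts, at -2.31 (edgeR adjusted p = 0.0379), a call that was lost with at least 10 counts in total (adjusted p = 0.0556) or no filter (adjusted p = 0.0798), and with limma on unfiltered log2(FPKM + 1) (adjusted p = 0.0779). In each of the 3 called genes both RIP libraries were below both inputs.

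Members near the threshold were thin in the RIP, and the 5 that follow passed the filter through the inputs alone, so that they had to be lower. *Snord23*, from *Nop53*, had 35 and 24 input counts and 0 and 3 RIP counts, so that the pooled input was 14.3 times the RIP (95% interval 4.67 to 71.5, counting error only). Its edgeR adjusted p was 0.0629, and 0.0303 with the replicate number as a block. *Snord19* had 26 and 20 input counts and 2 RIP counts in each replicate, with a pooled input of 8.38 times the RIP (95% interval 3.06 to 32.0) and an edgeR adjusted p of 0.0650. *Snord12*, *Snord32a* and *Snord80* had log2 fold changes from -2.75 to -2.27 with edgeR adjusted p from 0.0692 to 0.160, and in all 5 both RIP libraries lay below both inputs. *Snord80* was the only member of the *Gas5* cluster of 4 genes in the table with 10 counts or more, at 32 and 29 input counts and 3 and 6 RIP counts. The snoRNAs of the imprinted clusters, orphan RNAs known from neurons, gave nothing to compare. Of their 19 genes in the table (*Snord115*, *Snord116* and others) 17 had no count in any library and the highest total was 7.

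*Snord89* stood at the other end of box C/D. It had 37 counts in each input and 36 and 51 RIP counts, which is 1.09 ± 0.0223 CPM (SD, n = 2) for input and 1.77 ± 0.490 CPM for RIP. Both RIP libraries lay above both inputs after scaling, but the log2 fold change of 0.69 (standard error 0.499, edgeR adjusted p = 0.391) was not called. *Snord17*, at 238 nt the longest member, had 27 and 42 input counts and 16 and 23 RIP counts, with overlapping groups and a log2 fold change of -0.36 (edgeR adjusted p = 0.742).

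In box H/ACA, *Snora23*, *Snora57* and *Snora73b* were called lower. *Snora23*, in an intron of *Ipo7*, had 132 and 69 input counts and 4 and 8 RIP counts, a log2 fold change of -3.59 (standard error 0.644, edgeR adjusted p = 0.00973). *Snora57* had 64 and 51 input counts and 6 RIP counts in each replicate, at -2.78 (standard error 0.624, edgeR adjusted p = 0.0231). Their RIP libraries lay well under their inputs, and both genes had passed the filter through the inputs alone. *Snora69*, on the X chromosome in *Rpl39*, had 20 and 14 input counts and 0 and 1 RIP counts, so that the pooled input was 24.8 times the RIP (95% interval 4.15 to 1010, counting error only), and its edgeR adjusted p was 0.0592. It too had passed the filter through the inputs alone. *Snora31*, in *Tpt1*, had 85 and 63 input counts and 21 and 8 RIP counts, at -1.90 with an edgeR adjusted p of 0.0707, which the replicate block brought to 0.0191.

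Several abundant box H/ACA members had values near 0. *Snora68* had 64 and 59 input counts and 19 and 39 RIP counts, with a log2 fold change of -0.62 (edgeR adjusted p = 0.483). *Snora15* had 39 and 50 input counts and 22 and 27 RIP counts, at -0.40 (edgeR adjusted p = 0.665). In both, each RIP library was below each input after scaling, *Snora68* by more in replicate 1 (log2 ratio -1.35) than in replicate 2. *Snora7a*, from *Rpl32*, had 18 and 13 input counts and 9 and 10 RIP counts, at -0.25 (edgeR adjusted p = 0.865), and stood at 0.077 with library size alone. *Snora81*, which lies with *Snord2* in *Eif4a2*, had 15 and 35 input counts but 29 counts in RIP replicate 1 and 1 in RIP replicate 2. Its log2 fold change of -0.30 (edgeR adjusted p = 0.884) became 0.15 with library size alone, 0.40 without input replicate 2 and 0.70 without RIP replicate 2, so that its direction is not settled. *Snora30* and *Snora65*, untested for low counts, had more counts in the RIP than in the input. *Snora30* had 2 and 7 input counts and 6 and 12 RIP counts, and *Snora65* had 1 count in each input and 8 and 1 in the RIP libraries. *Snora47* had 8 and 4 input counts and 14 and 4 RIP counts, with overlapping groups. *Snora30* and *Snora65* have near copies elsewhere among the annotated transcripts, and none was found for *Snora47*.

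**Figure D4:**
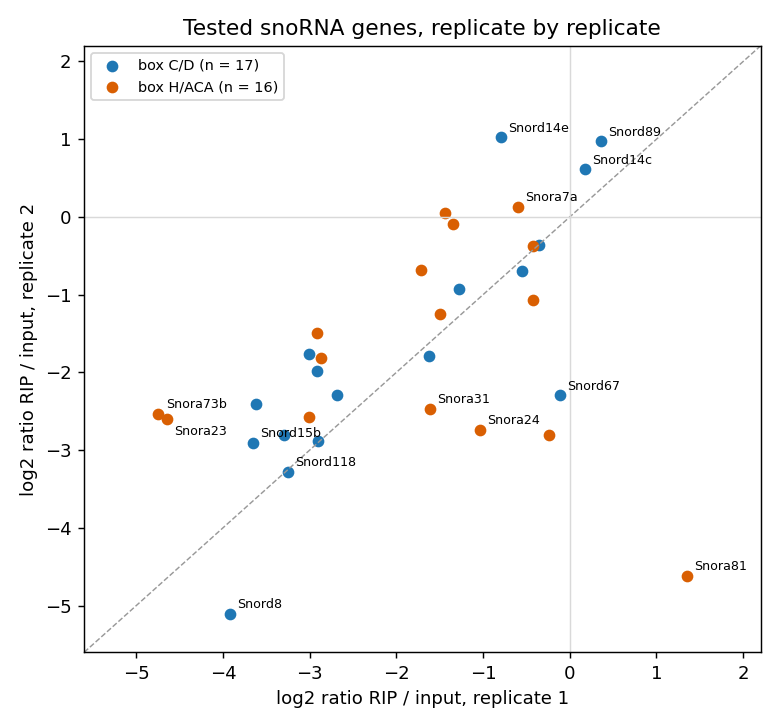
Log2 ratio of RIP to input in replicate 1 (horizontal) against replicate 2 (vertical) for tested members with counts in every library, 17 of box C/D and 16 of box H/ACA; the dashed line marks equal ratios. Box C/D points run along the line from *Snord8* to *Snord89*, and *Snora81* lies far off it, at 1.35 and -4.62.

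The replicates ordered the box C/D genes alike but not the box H/ACA genes. Across genes, log2 ratios of replicates 1 and 2 had a Spearman correlation of 0.814 for 17 box C/D genes (Pearson r 0.828) and of 0.0559 for 16 box H/ACA genes (Pearson r 0.0160). The genes of a class share their libraries and differ in depth, the tested box C/D genes having a median of 92 counts in total and the box H/ACA genes 76, so that this is a description of these libraries.

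Properties of the genes that did not enter the choice were set beside the fold changes. Box C/D members were shorter, from 69 to 238 nt with a median of 86 nt, than box H/ACA members, from 121 to 205 nt with a median of 132 nt. Within the tested genes, length and log2 fold change had a Spearman correlation of -0.106 (Pearson r 0.0653) over 19 box C/D and of -0.0678 (Pearson r -0.289) over 17 box H/ACA genes. The 9 tested box C/D genes of up to 100 nt had a median of -2.31 and the 10 longer ones one of -2.31 as well. GC content had Spearman correlations of -0.0307 and -0.194 in the same order. Other RNAs of like size had low values too. The 203 other tested genes of up to 250 nt had a median of -2.05, with 44.8% called lower, and the 70 small nuclear RNA genes one of -2.48. Among 13 small Cajal body RNA genes, the median was -1.12, with 3 called in each direction. A further 53 tested genes annotated as snoRNAs had no *Snord* or *Snora* symbol and were not members. Their median was -1.72, with 35.8% called lower and 3.77% called higher.

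Of the 76 members 70 lay within a longer gene on their strand, such as *Rps3*, *Hspa8* or the noncoding *Snhg1*. A host could be tested for 68 of them, counting a host once for each of its snoRNAs, and was lower in the RIP for 33 and higher for 3, where 9.78% and 3.48% of all tested genes were called. For *Snord22* and *Snhg1* the log2 fold changes were -1.73 and -1.83, and for *Snora41* and *Eef1b2* they were -2.23 and -2.22. Others lay apart, as for *Snora73b* at -3.14 against *Rcc1* at -0.14 (host adjusted p = 0.825, edgeR) or *Snora7a* at -0.25 against *Rpl32* at -3.69 (host adjusted p = 0.00154, edgeR). Across genes, snoRNA and host log2 fold changes had Spearman correlations of 0.0341 over 15 box C/D (Pearson r 0.230) and -0.0500 over 16 box H/ACA genes (Pearson r -0.0636), pairs of a gene sharing libraries and, at times, a host.

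**Figure D5:**
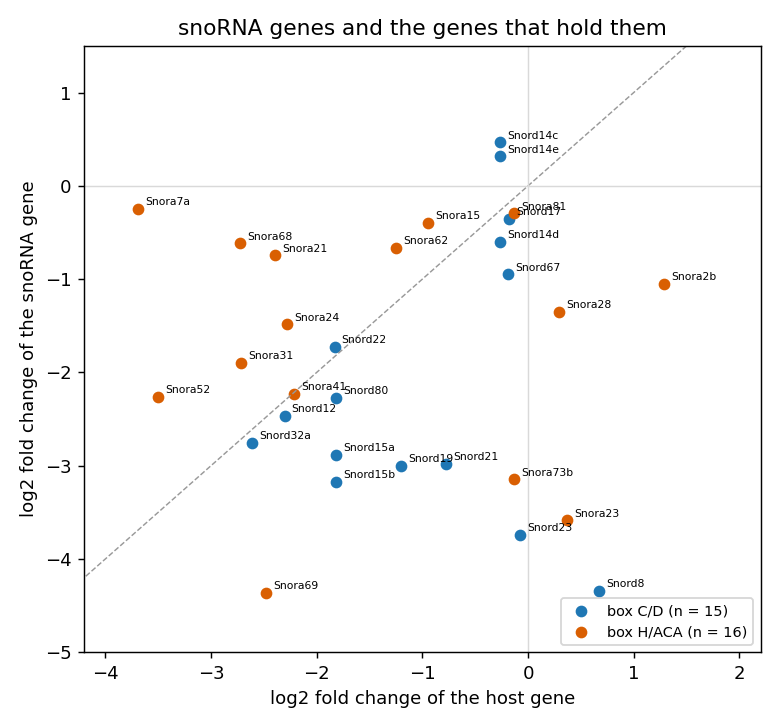
Log2 fold change of the host gene (horizontal) against that of the snoRNA gene within it (vertical), RIP against input, for 15 box C/D and 16 box H/ACA genes whose host was tested; the dashed line marks equal values. Points such as *Snord22* lie on the line, while *Snora7a*, *Snora73b*, *Snora23* and *Snord8* lie far from it.

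Where an annotated exon of another gene covers a snoRNA, its count depends on counting settings not given in the sources used here. Of the tested box C/D genes, the 9 that lay wholly under exons of another gene on the same strand, *Snord15b* and *Snord22* among them, had a median log2 fold change of -2.27, and the 10 others one of -2.53. In box H/ACA the 6 wholly covered genes had a median of -0.98 and the 11 others one of -1.90, and the 3 called genes were among the latter. How far this cover bears on the fold changes was not tested.

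Transcripts for the proteins of these complexes are ordinary mRNAs and were taken from a list, to be read against the 9.78% of all tested genes called lower and the 3.48% called higher. Of the 4 box C/D core proteins, *Snu13* was lower in the RIP, with 921 and 567 input counts and 139 and 169 RIP counts and a log2 fold change of -1.82 (edgeR adjusted p = 0.0200). *Fbl*, the methyltransferase fibrillarin, stood at -1.16 (edgeR adjusted p = 0.0576), *Nop56* at -1.06 and *Nop58* at -1.93, none of the 3 called. Of the 4 box H/ACA core proteins, *Gar1* and *Nop10* were lower, at -3.23 (edgeR adjusted p = 0.00238) and -2.50 (edgeR adjusted p = 0.00402). *Gar1* had 1119 and 857 input counts and 98 and 56 RIP counts. *Dkc1*, the pseudouridine synthase dyskerin, at -1.26 (edgeR adjusted p = 0.132) and *Nhp2* at -1.48 (edgeR adjusted p = 0.0574) were not called. Among 11 assembly factors *Nolc1* and *Nufip1* were lower, at -1.42 and -1.82, and none was called higher. *Shq1*, a chaperone of dyskerin, had the highest value of these, 1.76, with 26 and 16 input counts, 42 and 62 RIP counts and an edgeR adjusted p of 0.0717.

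With 1 library left out, its group has a single library and the spread comes from the other group alone. Calls of the main fit were lost without either RIP library, and none was lost without either input library. The cause of this difference was not tested. Without RIP replicate 1 edgeR called 0 of the 76 snoRNA genes lower (11 at an unadjusted p below 0.05), and without RIP replicate 2 it called 2, while genes called lower among all tested fell from 1333 to 112 and 178. The 10 genes kept log2 fold changes from -4.77 to -1.37 without RIP replicate 1 and from -4.82 to -2.01 without RIP replicate 2. Without input replicate 1 the medians of the tested members were -2.50 for box C/D and -1.27 for box H/ACA. Without input replicate 2 they were -2.495 and -1.72. At 2 libraries per group, the smallest two-sided p of an exact permutation test on 1 gene is 0.333, and each p therefore leans on the spread shared across genes.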

How the data were processed

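Per the labels, reads were processed with STAR 2.5 and HTSeq on GRCm38, with counting settings and annotation release not given in the sources used here. The authors deposited whole-number counts per gene and FPKM values, not pooled over replicates. Every column of both tables was used. The counts went into edgeR 4.0.16 under R 4.3.3 (filterByExpr with minimum count 10 and minimum total 15, TMM, glmQLFit, glmQLFTest) with Benjamini-Hochberg adjustment over all tested genes. Standard errors were derived from the fold change and its F statistic. Intervals and floors (3 counts per library) cover counting error only, and total counts per library are given above.

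Positions, hosts and sequences came from GENCODE M21 (GRCm38), which held all 76 genes. The host was the longer gene of another kind on the same strand that contained the snoRNA and had the most counts. Copies were searched with blastn 2.17.0 among annotated transcripts, and pairs were aligned with Biopython 1.88.

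The design text puts an input and a pulldown in each replicate, so that equal numbers pair libraries. Replicate differences of the inputs and of the RIP libraries had a Spearman correlation of -0.0641 over the 6858 genes that reached 50 counts in each of the 4 libraries. The model left the block out, and it was run as an alternative. For the same genes, replicates differed by more than sampling noise (chi-square per degree of freedom 167 for the inputs and 22.6 for the RIP libraries).

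Within each class the genes described are the 6 with the highest mean CPM, the 4 highest and 4 lowest log2 fold changes, and members by role (ribosomal RNA processing, U6 guides, imprinted, *Gas5* and *Snhg1* clusters). *Snora30*, *Snora47*, *Snora65*, *Snord12*, *Snord19*, *Snord32a*, *Snord104* and the host pair of *Snora41* were named with their values in view. Members, lists and rules were chosen with earlier results of these data known. A further retina marker of the list is not reported here and was left out of its sum. Alternatives were library size alone, upper quartile, TMM without small and mitochondrial RNAs, DESeq2 1.42.0, edgeR's exact test, 3 other filters, the replicate block, limma 3.58.1 after adding 0.1 or 1 to FPKM and taking log2 (mean FPKM of at least 0.1, or no filter), another call rule and each library left out. On simulated counts for this comparison, with changes of 4 times in 192 of 13113 tested genes, the fit called 37.0% of the changed genes, and 6.58% of its calls were unchanged genes.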

Additional observations from a re-analysis of the deposited data

How the results depend on the processing

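The calls rest on few libraries and low counts. Box C/D genes called lower were 7 in the main fit, 11 with edgeR's exact test, 4 with at least 10 counts in every library (8 members tested), 15 and 14 with limma on log2(FPKM + 0.1) and log2(FPKM + 1), and 13 at an unadjusted p below 0.05 with a log2 change past 1 in size. Box H/ACA genes called lower were 3, and 6, 0 (4 members tested, 0 at an unadjusted p below 0.05 with edgeR), 9, 11 and 7 in the same order. Over all genes, 1333 of 13632 were called lower in the main fit and 1876 of 13632 with the exact test. With at least 10 counts in every library these were 1290 of 11252, and with limma 1323 and 1332 of 14493. At the unadjusted rule they were 17.2%. The box C/D median of -2.31 became -1.40 with DESeq2, -1.24 with no filter, -1.37 with at least 10 counts in total, -1.33 on log2(FPKM + 0.1), which are over 45 members, and -1.47 where all 4 libraries had to reach 10 counts. The box H/ACA median of -1.41 became -1.05 with library size alone and -0.71 where all 4 libraries had to reach 10 counts. On log2(FPKM + 1), with or without a filter, the medians were -0.80 and -0.74. The difference of 0.90 between the classes became 0.046 with DESeq2, -0.030 with no filter, 0.038 with at least 10 counts in total, 0.071 on log2(FPKM + 0.1) and 0.062 on log2(FPKM + 1), fits in which all 76 members entered. With 1 library left out, the box C/D median ran from -2.50 to -1.74, the box H/ACA median from -2.26 to -1.27, and their difference from -0.52 to 1.23. The cause was not tested where the number of members tested stayed the same.

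No alternative called a member higher. Library size alone moved the median of all genes from -0.05 to 0.27 and the share of higher calls from 26.2% to 45.8%, and put *Snora81* at 0.15 and *Snora7a* at 0.077. With 1 library left out, *Snord14e* ran from -0.58 (without RIP replicate 2) to 1.0, *Snord14c* from -0.31 (without RIP replicate 2) to 1.08, *Snora81* from -3.95 to 0.70 (above 0 without input or RIP replicate 2) and *Snora7a* from -0.49 to 0.027 (above 0 without input replicate 1). The replicate block called 12 members lower in place of 10, and 1602 of all 13632 genes in place of 1333. *Snord23* at -3.84 and *Snora31* at -1.99 were gained, and no other call of a member changed. The medians with the block were -2.40 and -1.41, 0.98 apart. For the tested members described, 28 calls were gained and 9 lost over all alternatives other than leaving out a library, the lost ones being of *Snord22*, *Snora73b* and *Snord104*. This tally leaves out fits in which a gene was not tested. With at least 10 counts in every library 4 of the 10 calls were kept. *Snord8*, *Snord21*, *Snord104*, *Snora23*, *Snora57* and *Snora73b* were not tested in that fit. Setting members at the floor in the RIP to their bound left both class medians as they were.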
